A study of Mus musculus with 12 samples.

Results

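Mouse embryonic fibroblasts (MEFs) carried 154 places where accessible chromatin sites were packed side by side, and these dense clusters are described here. Consecutive peaks of the MEF list of both sequencing platforms were chained whenever the gap from the end of a peak to the start of the next was at most 5 kb, and chains of at least 8 peaks were kept. The rule gave 1604 member peaks, which are 2.59% of the 61891 peaks of that list. The members were thus chosen by peak calls in MEFs, so their MEF levels are a description. Most comparisons of the members as a set are read beside the same measure over all, or over other, MEF peaks. Comparisons within a chain have no such measure beside them. Chromatin was profiled by Omni-ATAC-seq, an assay in which the transposase Tn5 inserts sequencing adapters into open DNA. Bulk cells were sorted from cultures on a C57/Bl6 background, MEFs as THY1+ cells and mouse embryonic stem cells (mESCs) as THY1-/SSEA1+/EPCAM+ cells, with no treatment or genetic change named. The 3 MEF libraries carry the numbers 1, 2 and 4 and the 3 mESC libraries 1, 3 and 5. Each library was sequenced on 2 instruments, the DNBSEQ-G400 of BGI and the HiSeqX10 of Illumina, and the study asked what the choice of sequencer changes. The labels number the libraries but do not say which cultures or animals they came from, and the study calls them biological replicates.

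Accessible sites mark promoters, enhancers and insulators from which nucleosomes are displaced by transcription factors. Several such elements often crowd around genes that define a cell type or are used heavily by it, where each element can add to the transcription of a shared target gene. In fibroblasts, genes of the collagen matrix, of the actin cytoskeleton and of positional identity, such as the Hox genes, are known for broad regulatory domains, and factors of the AP-1, TEAD and RUNX families are known to bind many fibroblast enhancers.

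The sequences below are the central 201 bases of selected members outside promoters and exons, read 5′ to 3′ on the plus strand of GRCm38. The first 4 are shown because they are the members with the highest MEF level in the 4 chains with the lowest p among those lower in mESCs. The other 3 are the members with the largest fold change in 3 chains that were higher in mESCs. The label "no gene" means that a chain holds no gene start and no part of a coding gene, though it can lie in a non-coding gene. Capitals mark every match, on either strand, to any of 10 searched motifs: AP-1 (TGANTCA), TEAD (GGAATG), RUNX (TGTGGT), C/EBP (TTGCNNCAA), an E-box (CAGGTG), POU (ATGCAAAT), SOX (ACAATGG), KLF (GGGTGTGG), and CTCF and the CArG box of SRF, searched by name.
Fam185a/Fbxl13, chr5:21496480-21496680: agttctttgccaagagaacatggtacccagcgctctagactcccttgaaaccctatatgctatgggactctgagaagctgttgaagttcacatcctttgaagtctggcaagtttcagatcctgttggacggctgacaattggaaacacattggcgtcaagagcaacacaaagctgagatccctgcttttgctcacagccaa
Trio, chr15:27782739-27782939: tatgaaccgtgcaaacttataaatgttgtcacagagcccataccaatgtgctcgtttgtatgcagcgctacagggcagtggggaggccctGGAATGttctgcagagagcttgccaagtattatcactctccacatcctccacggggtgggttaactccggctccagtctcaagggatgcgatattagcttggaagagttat
Col1a1, chr11:94933664-94933864: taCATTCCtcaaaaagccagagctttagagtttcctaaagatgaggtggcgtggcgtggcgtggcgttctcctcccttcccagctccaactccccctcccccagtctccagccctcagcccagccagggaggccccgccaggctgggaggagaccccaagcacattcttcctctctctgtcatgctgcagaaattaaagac
No gene on chr1, chr1:192798554-192798754: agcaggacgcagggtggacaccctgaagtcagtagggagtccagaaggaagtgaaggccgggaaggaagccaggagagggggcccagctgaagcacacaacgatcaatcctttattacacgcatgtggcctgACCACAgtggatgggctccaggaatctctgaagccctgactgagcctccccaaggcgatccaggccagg
No gene on chr17, chr17:29451419-29451619: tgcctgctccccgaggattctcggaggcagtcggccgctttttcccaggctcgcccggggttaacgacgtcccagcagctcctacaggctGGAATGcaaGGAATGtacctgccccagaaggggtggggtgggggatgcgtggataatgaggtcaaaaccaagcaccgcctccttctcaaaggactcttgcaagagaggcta
Histone genes, chr13:23747971-23748171: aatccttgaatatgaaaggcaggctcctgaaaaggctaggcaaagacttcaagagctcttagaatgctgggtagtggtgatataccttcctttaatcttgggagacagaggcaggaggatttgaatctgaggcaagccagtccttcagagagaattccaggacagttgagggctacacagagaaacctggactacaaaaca
Ptma, chr1:86531859-86532059: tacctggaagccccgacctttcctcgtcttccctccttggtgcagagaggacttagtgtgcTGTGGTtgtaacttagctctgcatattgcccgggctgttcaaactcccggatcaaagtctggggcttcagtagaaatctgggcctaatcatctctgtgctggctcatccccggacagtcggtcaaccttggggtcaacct

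The Trio window held a TEAD match, the Col1a1 window a TEAD match on the minus strand, and the window on chr1 a RUNX match on the minus strand. The window on chr17, from a member that was higher in mESCs, held 2 TEAD matches, and the Ptma window held a RUNX match. No searched motif was found in the Fam185a/Fbxl13 window or in the histone window. Among all MEF peaks, 19.9% of windows of this length held a TEAD match, 16.4% a RUNX match and 22.2% an AP-1 match, so each match is a description and not a bound site.

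The chains spanned 5.88 to 48.9 kb, with a median of 16.2 kb, and covered 2794 kb in all. Neighbouring members lay a median of 760.5 bp apart. The widest of the 1450 gaps inside chains was 4994 bp, just inside the limit. There were 58 chains with 8 peaks, just inside the rule, and 123 with 7 peaks, just outside it. Their median spans were 14.9 and 12.4 kb, and 47.2% and 47.7% of their peaks were promoter peaks. Only 12 chains held 15 or more peaks, and the chain over Col1a1 on chr11:94916430-94958378 held the most, 30.

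Chromosome 11 carried 27 of the chains and 307 of the members, which are 6.49% of its MEF peaks. Chromosome 15 carried 14 chains, chromosome X carried none, and an unplaced scaffold carried a chain of 28 peaks. Promoter peaks, meaning those with a transcription start site (TSS) of GENCODE M21 no more than 1 kb away, made up 42.1% of members against 39.4% of all MEF peaks, an order that reversed within 500 bp (33.4% against 34.6%). Exonic peaks were 8.35% of members against 5.72%, intronic peaks 24.4% against 28.5%, and intergenic peaks 25.2% against 26.5%. The start of at least 1 protein-coding gene lay in 113 chains, and 41 held none. In all, 186 coding genes, or 0.844% of 22028, started in a chain.

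Of the gene lists set up for this tissue, Hox genes had the highest share of starts in a chain, 8 of 39. AP-1 genes had 2 of 11, contractile and adhesion genes 6 of 39, and TEAD, YAP and their targets 2 of 13. For collagens and matrix genes the count was 3 of 31, for mesenchymal transcription factors 3 of 43, and for growth factor receptors and signalling genes 2 of 38. No gene of the TGF-beta list (0 of 18) or of the pluripotency list (0 of 31) started in a chain. With 0.844% of all coding genes starting in a chain, a count of 0 in lists this short says little. Chains inside a gene but without its start were not counted, such as a chain of 11 peaks in Smad7 of the TGF-beta list (log2 fold change, mESC minus MEF, -0.95).

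Peak counts of both sequencer runs of a library were summed, so that a library is 1 replicate (n = 3 for each cell type). Levels are given in CPM, counts per 1e6 reads of a library size set by TMM scaling on a joint set of peaks from both cell types. MEF peaks held 19.6 to 21.5 M reads of each MEF run and 10.8 to 12.1 M reads of each mESC run (M for 1e6). The median member held 247 to 293 reads in a MEF run and 130.5 to 144 in an mESC run. All 1604 members passed the filter on low counts, and 5 had a count of 0 in an mESC run. As a check of the labels, promoter peaks of 7 fibroblast marker genes summed to 374 to 428 CPM in MEF libraries and 123 to 127 CPM in mESC libraries. Those of 7 mESC marker genes summed to 39.0 to 41.4 and 371 to 419 CPM. Among markers of other cell types, those of macrophages and blood (2 of 4 with a promoter peak, none for Ptprc and Spi1) summed to 27.17 to 35.01 CPM in MEFs and 58.1 to 68.3 CPM in mESCs, with Cd68 at 12.2 to 21.1 against 57.3 to 65.8 CPM and Csf1r at 13.9 to 15.1 against 0.821 to 2.52 CPM. Endothelial markers (2 of 4, none for Cdh5 and Tie1) summed to 26.4 to 33.4 and 21.3 to 24.1 CPM, epithelial markers (3 of 4, none for Krt5) to 27.0 to 29.3 and 86.6 to 106 CPM, and muscle markers (1 of 3, none for Myog and Myf5) to 2.75 to 3.34 and 9.34 to 9.99 CPM. Their part in the results below was not tested.

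Under the joint scaling, most dense clusters were less accessible in mESCs than in MEFs, and those in Fam185a/Fbxl13, Apbb2, Trio and Col1a1 differed most. In the fit of counts summed over each chain (edgeR quasi-likelihood test, adjusted p under 0.05), 126 of the 154 chains were lower in mESCs, 8 were higher and 20 were not called. Over all 40718 chains of any size, single peaks included, 69.3% were lower and 11.4% were higher. The median log2 fold change, mESC minus MEF, was -0.56 for the dense chains and -0.84 for all chains. The dense chains were called lower in 81.8%, with a smaller median difference than all chains, of which 28254 are single peaks. No test of that difference was made, and the shares change order with the scaling given below, under which more dense chains were higher than lower (85 against 46). A fall of at least 1 on the log2 scale was reached by 43 dense chains, beside 47.1% of all chains. A lower count in bulk cells cannot tell fewer cells with an open site from less opening in each cell.

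The direction of the weaker differences depended on the scaling. TMM factors taken from the MEF peaks alone, rather than from peaks of both cell types, moved the median of all peaks by 0.789 on the log2 scale. With that scaling, 46 dense chains were lower and 85 higher, beside 44.6% lower and 41.0% higher of all chains, and the median of the dense chains turned to 0.23. Of the 126 chains called lower, 57 kept their sign in all scalings tried and 69 turned. The 3 other scalings all raised mESC against MEF values (by 0.789, 0.120 and 0.044 at the median of all peaks), so a chain that was higher could not turn. The median of the dense chains stood 0.28 above that of all chains, a distance that a scaling of whole libraries leaves nearly as it is.

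**Figure D1:**
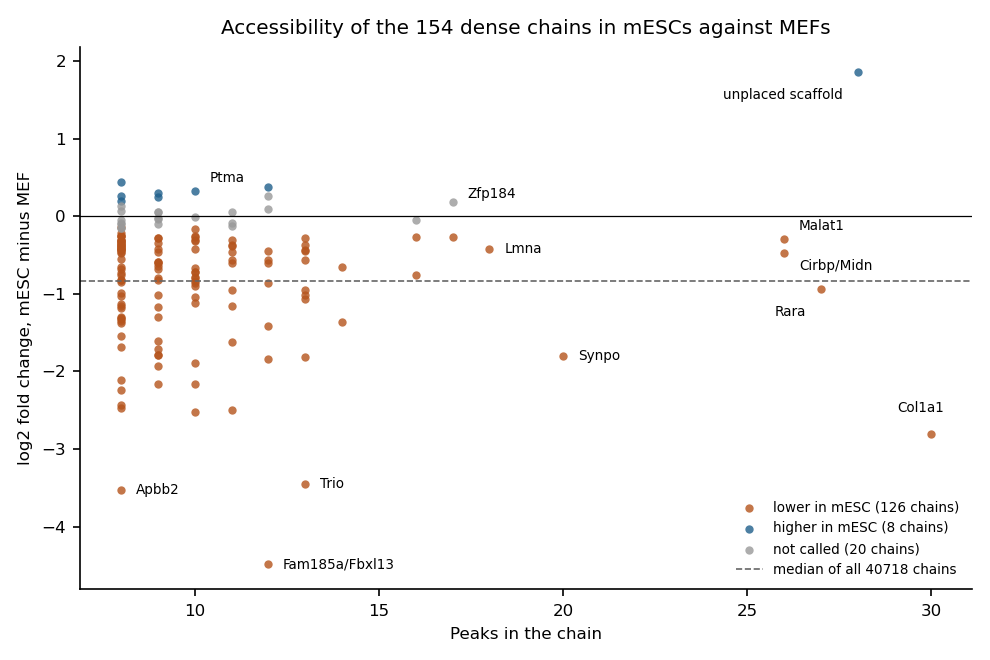
Each point is a dense chain of MEF peaks, with its number of peaks on the x axis and its log2 fold change, mESC minus MEF (n = 3 against 3 libraries, joint scaling), on the y axis. Chains of 8 peaks span about the same range of fold changes as larger chains, the Col1a1 chain with 30 peaks stands at -2.81, and the chain of 28 peaks on the unplaced scaffold stands apart at 1.86. With TMM factors from MEF peaks alone, all points move up by about 0.789 and 69 of the 126 chains called lower change sign.

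Chain size showed no trend in the fold change beyond that between single peaks and the rest. The median log2 fold change was -1.16 for single peaks, -0.56 for chains of 2 to 3 peaks and -0.55 for chains of 4 to 6. It was -0.57 at 7 peaks, -0.43 at 8, -0.60 at 9 to 11 and -0.56 at 12 or more. The share of peaks also on the mESC list was 43.9% for single peaks, 53.2% for chains of 2 to 3 peaks and 54.9% for chains of 4 to 6. It was 56.7% at 7 peaks, 57.8% at 8, 57.9% at 9 to 11 and 55.5% at 12 or more. Most of this step thus also lay between single peaks and the rest.

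Taken peak by peak, 1054 members (65.7%) were lower in mESCs and 189 (11.8%) were higher, beside 67.1% and 11.9% of all MEF peaks, so members were called about as often as any MEF peak. Their median log2 fold change was -0.69, and that of all MEF peaks -0.80. Without the chain on the unplaced scaffold, an alternative chosen after seeing the data, 1053 members were lower and 165 higher. A log2 change of at least 1 was seen in 630 members downwards and 63 upwards, beside 45.8% and 3.19% of all MEF peaks. Without the scaffold the upward count was 46 (2.92%), beside 3.16%, whereas 63 is 3.93% of the members. With TMM factors from MEF peaks alone the counts were 563 lower and 680 higher, beside 42.7% and 40.6%, and the median of the members turned to 0.10.

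Promoter and distal members differed from MEF peaks of their own kind in opposite ways. Of the 675 promoter members, 411 (60.9%) were lower and 87 (12.9%) higher, beside 54.2% and 15.3% of all promoter peaks. For the 929 distal members the counts were 643 (69.2%) and 102 (10.98%), beside 75.4% and 9.63% of all distal peaks. Without the scaffold they were 642 (71.02%) and 81 (8.96%) of 904 distal members, so that the share of higher members was no longer above that of all distal peaks, 9.56% without scaffolds. The median of distal members was -0.94, against -2.05 for all distal MEF peaks, whereas that of promoter members was -0.46 against -0.30. These are descriptions of the members, and no test of the difference between member and other peaks was made. Distal members therefore lay closer to the mESC level than distal MEF peaks in general. Among intronic members, 321 of 391 (82.1%) were lower, with a median of -1.54, beside 80.003% and a median of -2.35 for all intronic MEF peaks.

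**Figure D2:**
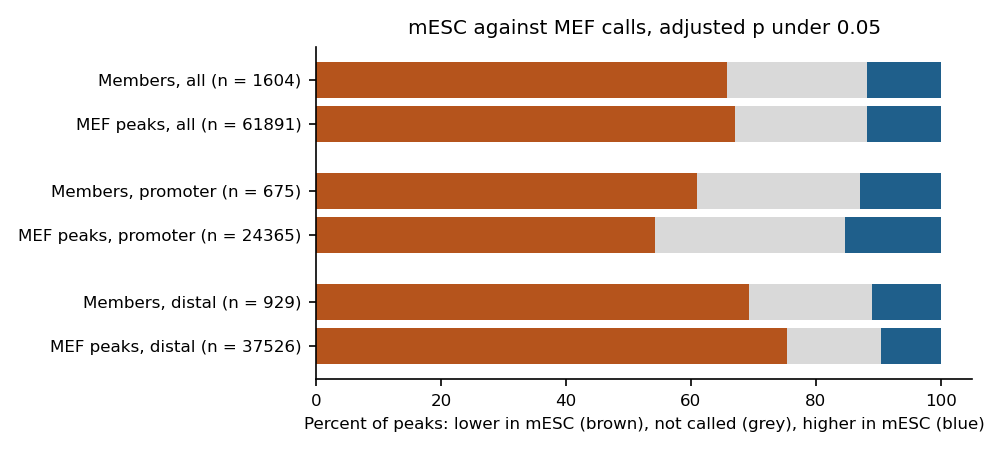
Bars give the percent of peaks that were lower in mESCs (brown), not called (grey) or higher (blue) at an edgeR adjusted p under 0.05, for members and for all MEF peaks, in all, at promoters and at distal sites. The brown share of members is 65.7% in all, 60.9% at promoters and 69.2% at distal sites, so promoters and distal sites are closer to each other within the clusters than over the whole list, under the joint scaling; TMM factors from MEF peaks alone give 563 lower and 680 higher members.

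Differences were uneven within a chain. In 81 chains some members were lower and others higher, in 17 chains every member was lower, and in the Ptma and Ltbp4 chains no member was lower. The gap between the lowest and the highest log2 fold change of members of the same chain had a median of 2.97 and ran from 1.05 to 6.499, the widest in a chain inside the gene body of Ddc, which encodes an aromatic amino acid decarboxylase. In 135 chains with both kinds of member, the median of the distal members was below that of the promoter members in 85, and the median difference over all 135 was -0.29. Where a chain held at least 3 of each, it was below in 53 of 84, and the median difference was smaller, -0.18.

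The matrix genes gave the chain with most peaks. Col1a1, which encodes a subunit of type I collagen, lay in a chain whose summed level was 570.4, 469 and 522 CPM in MEF libraries 1, 2 and 4 and 75.5, 76.2 and 70.9 CPM in mESC libraries 1, 3 and 5. The groups were far apart, and the MEF mean was 7.01-fold the mESC mean (log2 fold change -2.81 ± 0.077 SE, edgeR adjusted p = 3.21e-11). All 30 members were lower, with log2 fold changes of -1.35 or lower. The member with the highest MEF level, whose sequence is given above, lies 2460 bp from a Col1a1 start at chr11:94933504-94934025. It stood at 50.5, 48.0 and 49.4 CPM in MEFs and at 1.90, 2.49 and 2.57 CPM in mESCs (-4.40 ± 0.12). Only 1 member, at chr11:94936862-94937403 and 554 bp from a Col1a1 start, was also on the mESC list. Its levels were 36.7, 32.6 and 40.1 CPM against 12.5, 12.2 and 11.5 CPM (-1.59 ± 0.099).

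Fstl1, a secreted glycoprotein of the follistatin family, lay in a chain at 207, 185 and 171 CPM in MEFs and 51.1, 45.5 and 51.3 CPM in mESCs (log2 fold change -1.93 ± 0.081). Serpinh1, a chaperone of collagen in the endoplasmic reticulum, lay in a chain at 273, 245 and 241 CPM against 91.6, 78.6 and 91.0 CPM (-1.54 ± 0.075). Every member of both chains was lower in mESCs. All 3 matrix chains kept their sign in all scalings.

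The 3 largest differences lay in gene bodies. The chain in Fam185a and Fbxl13, the latter encoding an F-box protein, spans chr5:21481484-21507366 and holds 12 peaks, of which none is on the mESC list. It stood at 139.9, 124 and 129.6 CPM in MEFs and at 6.05, 5.40 and 6.10 CPM in mESCs, a 22.4-fold difference (-4.49 ± 0.085, edgeR adjusted p = 1.92e-11). Its highest member, at chr5:21496324-21496836, is intronic, and the nearest start, that of Lrrc17, is 46979 bp away. That member stood at 34.6, 28.2 and 31.3 CPM against 0.584, 0.557 and 0.209 CPM (-6.11 ± 0.22). The mESC libraries were thus almost without reads there.

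Trio, a guanine nucleotide exchange factor, held a chain of 13 peaks at 204, 190.2 and 190.0 CPM in MEFs against 18.2, 16.3 and 18.8 CPM in mESCs (-3.45 ± 0.074). None of its members is on the mESC list and all 13 were lower. The intronic member at chr15:27782588-27783090, shown above with its TEAD match, fell from 45.5, 40.0 and 43.8 CPM to 0.645, 1.06 and 0.658 CPM (-5.77 ± 0.16). A second strong member, at chr15:27788385-27788907, lies 8 bp from a Trio transcript start and stood at 40.3, 36.7 and 39.9 CPM against 2.27, 2.08 and 2.18 CPM.

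Apbb2, an adaptor that binds the amyloid precursor protein, held a chain of 8 peaks at 116, 112 and 111 CPM against 10.9, 7.98 and 10.5 CPM (-3.53 ± 0.10). Every member of that chain was lower. Anapc13, a subunit of the anaphase-promoting complex, lay at the start of a chain that runs on into intergenic sequence, at 139.7, 138 and 135 CPM against 23.7, 22.6 and 26.9 CPM (-2.49 ± 0.074), with all 11 members lower. A chain at chr1:192778879-192799523 holds no coding gene start. The nearest is that of Hhat, an acyltransferase of the Hedgehog pathway, 7.66 kb away, and the chain stood at 135, 129.9 and 139 CPM against 22.6, 22.3 and 25.04 CPM (-2.53 ± 0.070). These 3 chains kept their sign in all scalings.

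Among the other chains with most peaks, Synpo, an actin-associated protein, held 20 peaks at 306, 295 and 267 CPM in MEFs and 82.8, 82.9 and 83.4 CPM in mESCs (-1.80 ± 0.065), with 18 members lower and 1 higher. Rara, the retinoic acid receptor alpha, lay in a chain of 27 peaks at 445, 427 and 434 CPM against 218, 229 and 235 CPM (-0.94 ± 0.055). Of its members 25 were lower and none was higher. Both kept their sign in all scalings.

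**Figure D3:**
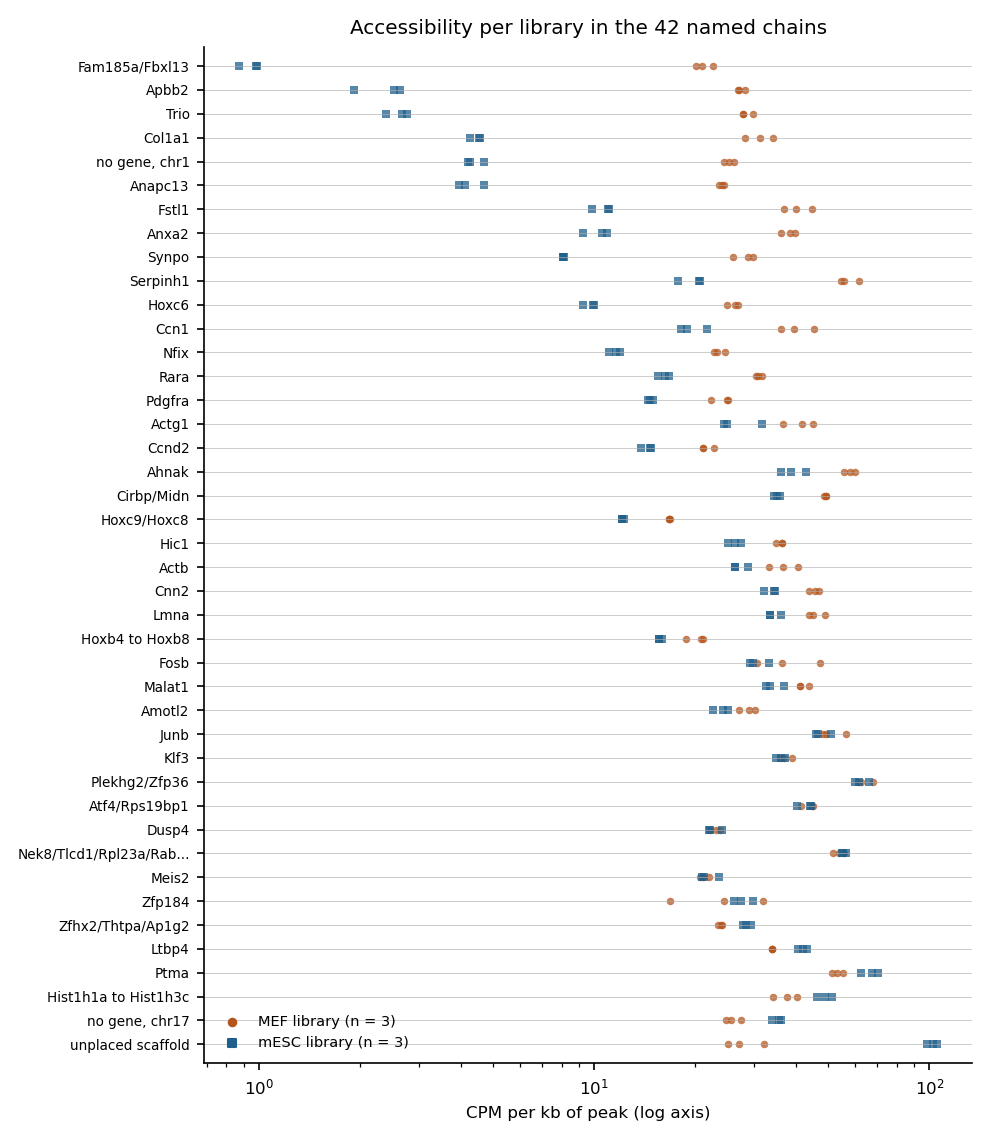
Each row is a chain named by the rule, ordered by log2 fold change, and each point is a library (circles MEF, squares mESC, n = 3 each) at its CPM per kb of peak on a log axis. The MEF libraries stand within a narrow band in most rows, whereas the mESC libraries run from under 1 CPM per kb in Fam185a/Fbxl13 to about the MEF level from Junb to Zfp184. From Pdgfra to Amotl2 the group mean is lower in mESCs under the joint scaling, with overlapping libraries in Fosb, and the sign turns with TMM factors from MEF peaks alone.

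Of the chains with a start of a contractile or adhesion gene, that of Anxa2 differed most. Chains inside genes of this list but without the gene start were also lower, in Anxa2 (-2.24), Cald1 (-1.71), Ahnak (-1.30), Myh9 (-0.83) and Actn1 (-0.48). All but that in Actn1 kept their sign in all scalings. Anxa2, an annexin that binds phospholipids and actin at the membrane, lay in a chain at 203, 192 and 210.1 CPM in MEFs and 58.0, 49.1 and 55.9 CPM in mESCs (-1.89 ± 0.074), a sign kept in all scalings. Its member 33 bp from a start, chr9:69453308-69453867, was not called (36.9, 33.3 and 38.5 CPM against 35.5, 33.1 and 35.6 CPM). The member with the highest MEF level at chr9:69457836-69458348, near the microRNA gene Mir3109, stood at 56.2, 50.3 and 58.1 CPM against 3.87, 4.02 and 4.22 CPM (-3.76 ± 0.099). With TMM factors from MEF peaks alone that start-proximal member stood at 0.73. Under the joint scaling the difference of the Anxa2 chain thus lay in its other 9 members.

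The other 5 chains with a start of a gene of this list were lower by less. Actg1 and Actb, the cytoplasmic actins, lay in chains with log2 fold changes of -0.61 ± 0.10 and -0.44 ± 0.075, which turned to 0.18 and 0.35 with TMM factors from MEF peaks alone. The chains of Cnn2, an actin-binding calponin, and of Ahnak, a large scaffold protein, had -0.43 ± 0.059 and -0.56 ± 0.067, turning to 0.36 and 0.23. The chain of Lmna, which encodes the nuclear lamins A and C, stood at 418, 406 and 453 CPM in MEFs and 334, 309.6 and 310.3 CPM in mESCs (-0.42 ± 0.061, turning to 0.37). Relative to the median of all chains, -0.84, these 5 chains stood towards mESCs, but most of all chains are single peaks, with a median of -1.16. Beside the median of the dense chains, -0.56, the Actg1 chain was lower and the Ahnak chain about equal. The Actb, Cnn2 and Lmna chains stood above it.

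Of the 18 members of the Lmna chain, 12 were lower and 2 higher. The member with the highest MEF level, 19 bp from an Lmna start at chr3:88503104-88503609, stood at 66.2, 63.7 and 63.4 CPM against 37.4, 28.6 and 33.6 CPM (-0.96 ± 0.092, and -0.17 and not called with TMM factors from MEF peaks alone). Another promoter member, 171 bp from a start at chr3:88492876-88493407, stood at 59.2, 56.8 and 63.4 CPM against 64.2, 62.5 and 56.3 CPM and was not called (0.82 with TMM factors from MEF peaks alone). Promoter members of the gene thus differed from each other. At chr3:88483569-88484072 the member was higher in mESCs (0.36 ± 0.11), a call lost without mESC library 5 (edgeR adjusted p = 0.0637).

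Of the chains with mesenchymal transcription factors, those of Nfix and Hic1 were called lower under the joint scaling and that of Meis2 was not called. Nfix, of the nuclear factor I family, lay in a chain at 93.8, 95.8 and 101 CPM in MEFs and 49.3, 47.7 and 45.7 CPM in mESCs (-1.03 ± 0.063, sign kept in all scalings). The chain with Hic1, a zinc finger repressor, and Ovca2 had -0.45 ± 0.058, turning to 0.34 with TMM factors from MEF peaks alone. Its members at chr11:75158250-75158785 and chr11:75161514-75162073, whose nearest start is that of Smg6, had -4.39 ± 0.28 and -4.31 ± 0.26, whereas the member at the Ovca2 start was higher in mESCs (0.52 ± 0.087). The chain of Meis2, a homeobox factor, was not called at 102, 97.9 and 96.2 CPM against 97.6, 109.6 and 99.0 CPM (0.05 ± 0.064), but was called higher with TMM factors from MEF peaks alone (0.84). Its members ranged from -4.29 ± 0.39 at chr2:116078793-116079308 to 2.16 ± 0.12 at chr2:116060134-116060645, so summing over the chain averaged opposite differences.

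Of the AP-1 genes, whose products pair to bind the AP-1 motif, Fosb and Junb lay in chains. The Fosb chain stood at 172, 205 and 265 CPM in MEFs and 188, 164 and 167 CPM in mESCs, so the groups overlapped. The log2 fold change of -0.31 ± 0.12 (edgeR adjusted p = 0.0326) turned to 0.48 with TMM factors from MEF peaks alone. The call was lost without MEF library 4 (-0.12, edgeR adjusted p = 0.197), without MEF library 2 (-0.31), without mESC library 3 (-0.24) and without mESC library 5 (-0.28). It was also lost with DESeq2 (adjusted p = 0.13), with RLE scaling in edgeR (adjusted p = 0.0642) and with the down-sampled depths as library sizes (-0.18, edgeR adjusted p = 0.165). The chain with Junb, Prdx2 and Rnaseh2a was not called, at 229, 223 and 262 CPM against 217, 236 and 214 CPM (-0.10 ± 0.071), but was called higher with TMM factors from MEF peaks alone (0.69).

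Ccn1, a secreted matricellular protein and a known target of YAP and TEAD, lay in a chain of 10 members, all lower, at 205, 188 and 236 CPM against 113, 98.1 and 94.6 CPM (-1.04 ± 0.089, sign kept in all scalings). Amotl2, an angiomotin that binds YAP, lay in a chain of 17 peaks at 249.8, 266 and 279 CPM against 231, 223 and 208 CPM (-0.26 ± 0.063, not called at -0.14 with the down-sampled depths, and turning to 0.53 with TMM factors from MEF peaks alone). Here 11 members were lower and 3 higher. The 3 include the first member of the chain, 1524 bp from an Amotl2 start at chr9:102714898-102715399, at 7.64, 8.22 and 7.36 CPM against 25.7, 20.5 and 19.1 CPM (1.49 ± 0.13). Members near other Amotl2 starts at chr9:102721463-102721992 and chr9:102722213-102722723 went the other way, with -2.49 ± 0.20 and -2.27 ± 0.13.

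Pdgfra, a receptor tyrosine kinase widely used as a fibroblast marker, lay in a chain at 141, 126 and 140.2 CPM in MEFs and 81.5, 83.9 and 82.4 CPM in mESCs (-0.71 ± 0.063, turning to 0.08 with TMM factors from MEF peaks alone). The member 11 bp from a Pdgfra start, chr5:75155627-75156150, had the highest MEF level of the chain and was not called (26.8, 23.7 and 26.2 CPM against 26.0, 30.6 and 27.1 CPM), but was called higher with the down-sampled depths (0.25) and with TMM factors from MEF peaks alone (0.92). The other 9 members were lower, with the strongest at chr5:75160306-75160809 in an intron (-2.82 ± 0.35). Ccnd2, a cyclin of the G1-to-S transition, lay in a chain with -0.59 ± 0.063, turning to 0.20.

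Hox genes, which encode homeobox factors of axial position, started in 3 chains. The Hoxc6 chain stood at 169, 157 and 166 CPM in MEFs and 63.0, 58.4 and 62.3 CPM in mESCs (-1.42 ± 0.062, sign kept in all scalings), with 11 of 12 members lower. The neighbouring Hoxc9 and Hoxc8 chain stood at 68.2, 68.2 and 68.6 CPM against 49.4, 49.3 and 49.9 CPM (-0.46 ± 0.060, turning to 0.33 with TMM factors from MEF peaks alone). The third chain runs from Hoxb8 to Hoxb4 over 40.2 kb and stood at 145, 129 and 142 CPM against 107, 109 and 107 CPM (-0.37 ± 0.062, turning to 0.42).

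Along the Hoxb chain, 7 of 13 members were lower, 2 were higher and 4 were not called. The member 31 bp from a Hoxb6 start, chr11:96292172-96292718, stood at 9.04, 7.31 and 8.35 CPM against 1.11, 0.851 and 0.927 CPM (-3.10 ± 0.23). The member 460 bp from the Hoxb8 start, chr11:96282904-96283466, was higher in mESCs at 13.8, 12.4 and 12.4 CPM against 9.04, 8.57 and 7.86 CPM in MEFs (0.60 ± 0.12). Between them, the 2 promoter members nearest to Hoxb7 starts were not called (0.05 ± 0.14 and 0.02 ± 0.15). Promoter members of the same chain thus went both ways. The other higher member, chr11:96311489-96311991, lost its call without mESC library 3 (0.25, edgeR adjusted p = 0.0637).

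**Figure D4:**
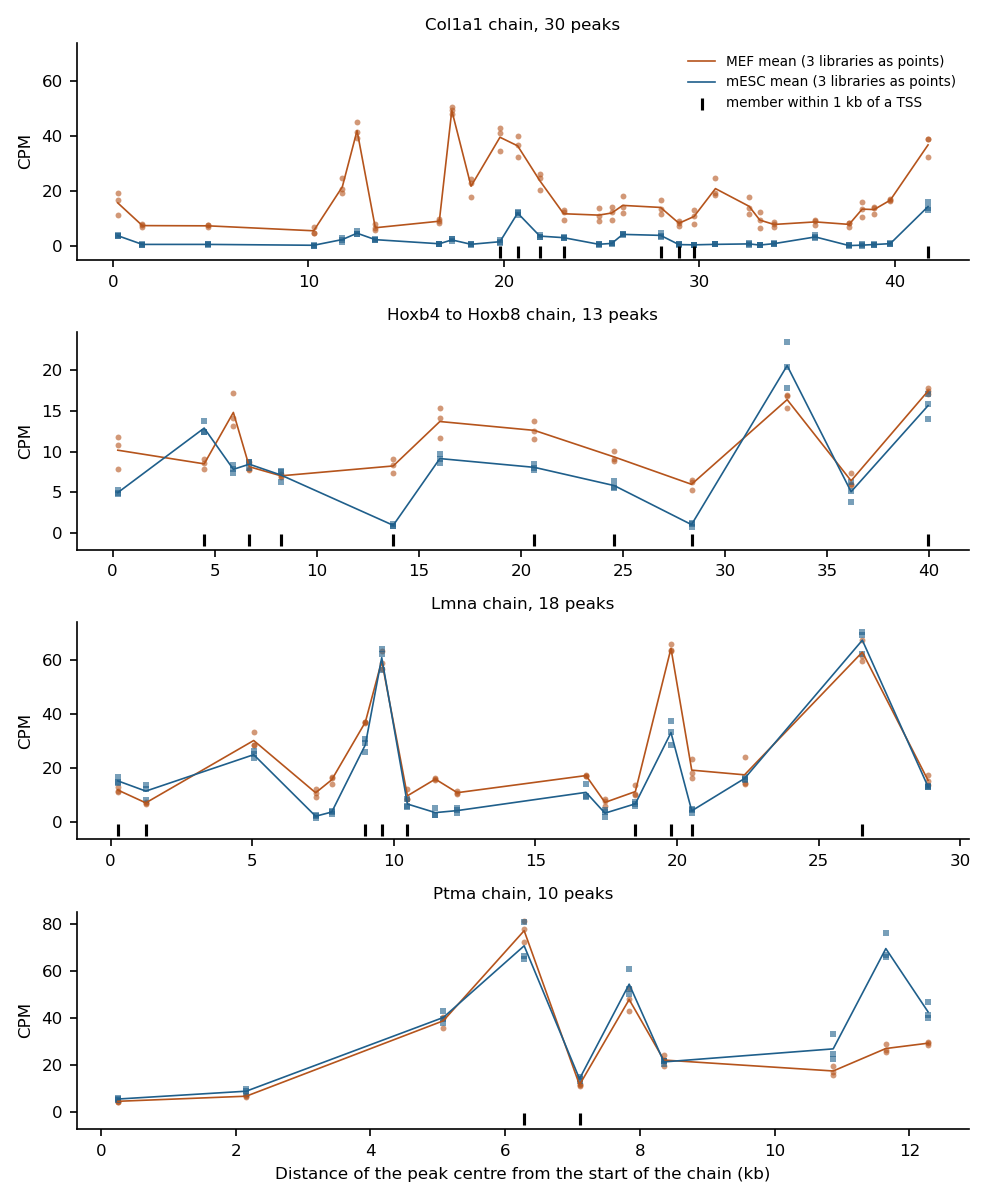
CPM of each member along the Col1a1, Hoxb, Lmna and Ptma chains, plotted at the distance of its centre from the start of the chain in kb. Points are libraries (n = 3 for each cell type), lines join the group means, and ticks mark members within 1 kb of a TSS. The mESC line stays below the MEF line along all of the Col1a1 chain, crosses it in the Hoxb and Lmna chains, and lies above it at the right end of the Ptma chain; these positions are those of the joint scaling, and TMM factors from MEF peaks alone would raise all mESC values relative to MEF values by 0.789 on the log2 scale.

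A pair of further chains held 26 peaks each, and both were called lower under the joint scaling. The chain with Cbarp, Atp5d, Midn, Cirbp and Efna2, of which Atp5d encodes an ATP synthase subunit and Cirbp a cold-inducible RNA-binding protein, stood at 666, 653 and 664 CPM in MEFs and 475, 483 and 465 CPM in mESCs (-0.48 ± 0.051, turning to 0.31 with TMM factors from MEF peaks alone). Malat1, a long nuclear RNA, lay in the other, at 623, 622 and 661 CPM against 558, 505 and 494 CPM (-0.29 ± 0.061, turning to 0.50). Of its members 14 were lower and 6 higher.

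Around Malat1, the intergenic member at chr19:5814932-5815435 stood at 30.3, 29.4 and 28.2 CPM in MEFs and 1.75, 1.70 and 1.17 CPM in mESCs (-4.25 ± 0.15). Closer to Malat1, the member at chr19:5810027-5810557 was higher in mESCs at 62.4, 54.9 and 53.3 CPM against 42.9, 38.2 and 36.6 CPM (0.53 ± 0.087). Sites of the same intergenic stretch therefore went both ways.

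Of the 20 chains that were not called, the Meis2 chain above and 5 others stood nearest to 0. Dusp4, a phosphatase of MAP kinases, lay in a chain at 125, 117 and 122 CPM in MEFs and 117, 127 and 116 CPM in mESCs (-0.02 ± 0.062). The chain with Atf4, a factor of the stress response, and Rps19bp1 also had -0.02 ± 0.062, that with Plekhg2 and Zfp36, a protein of mRNA decay, -0.03 ± 0.062, and that of Klf3, a zinc finger factor, -0.04 ± 0.059. The chain with Nek8, Tlcd1, Rpl23a, Rab34 and Proca1 had 0.05 ± 0.054. With TMM factors from MEF peaks alone, all of these were called higher, at 0.74 to 0.84.

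The chain of 17 peaks at Zfp184, a zinc finger gene next to histone genes, had the widest spread between MEF libraries of all 154 chains, at 301, 229.8 and 158 CPM (coefficient of variation 31.0%). Its mESC libraries stood at 279.7, 246 and 258 CPM, and it was not called (0.19 ± 0.16). Without MEF library 1 it was called higher, at 0.47 (edgeR adjusted p = 0.00176), and without MEF library 4 it was -0.02. Over the 154 dense chains the coefficient of variation between MEF libraries had a median of 4.71%, against 3.98% in other chains of at least the lowest MEF level of a dense chain, and 7 dense chains exceeded 15%. Between mESC libraries the order was the reverse, 5.07% in dense chains against 6.30% in other chains of at least that level in mESCs. MEF library 1 was the highest of the group in 91 chains and MEF library 2 the lowest in 78.

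Chains that were higher in mESCs were few and, apart from that on the scaffold, differed little. Ptma, which encodes the acidic nuclear protein prothymosin alpha, lay in a chain of 10 peaks at 281, 292 and 271 CPM in MEFs and 372, 357 and 331 CPM in mESCs (0.33 ± 0.061, edgeR adjusted p = 0.000252). All 10 members are on the mESC list, 5 were higher and none was lower. The largest difference was near the end of the chain, where the member at chr1:86531622-86532297, 5152 bp from a Ptma start, stood at 75.9, 65.8 and 66.5 CPM in mESCs against 25.6, 28.7 and 26.5 CPM in MEFs (1.36 ± 0.083). The member 134 bp from a Ptma start was not called (-0.13 ± 0.090), though it was called lower without mESC library 3 (-0.20) and was 0.66 with TMM factors from MEF peaks alone. The other promoter member, 606 bp from a Ptma start, was higher (0.29 ± 0.11).

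A chain over replication-dependent histone genes, from Hist1h3c to Hist1h1a, stood at 248, 211 and 232 CPM in MEFs and 300.3, 317 and 284 CPM in mESCs (0.38 ± 0.069), with 9 of 12 members higher. Histone genes have near-identical copies, and reads that map equally well to several copies are lost at the mapping quality filter, so these values are uncertain. Ltbp4, a latent TGF-beta binding protein, lay in a chain at 158, 159 and 158 CPM against 201, 196 and 188 CPM (0.30 ± 0.055). Its member 7 bp from a start, chr7:27337445-27337954, stood at 41.1, 40.9 and 38.3 CPM in mESCs against 15.6, 17.3 and 15.98 CPM in MEFs (1.30 ± 0.082). The chain with Zfhx2, Thtpa and Ap1g2 had 0.26 ± 0.057.

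The chain at chr17:29451267-29470377 holds no coding gene start, the nearest being that of the kinase Pim1 at 20.4 kb. Of its 8 peaks, 7 were promoter peaks, and the start nearest to its first member, of AC163629.2, is 2155 bp away. The chain stood at 151, 149 and 141 CPM in mESCs and 114, 106 and 103 CPM in MEFs (0.44 ± 0.062). The largest part came from its first member, an intronic peak shown above as the window with 2 TEAD matches, which stood at 43.0, 48.1 and 46.4 CPM in mESCs against 9.90, 8.64 and 7.90 CPM in MEFs (2.38 ± 0.10). The last member of the same chain was lower in mESCs (-3.27 ± 0.31).

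The unplaced scaffold carried the chain with the largest difference towards mESCs. It stood at 1620.4, 1669.9 and 1554 CPM in mESCs and 428, 507 and 396 CPM in MEFs (1.86 ± 0.081), with 24 of 28 members higher. A single promoter member made up much of this, with 754, 811 and 705 CPM against 174, 194 and 130.1 CPM. Whether other copies of this sequence exist in the genome was not tested. The counts of members called lower or higher, in all and at distal sites, are given above with and without this chain. Without it, 126 chains were lower and 7 higher, and of 672 promoter members 411 were lower and 84 higher. The members as a whole took 2.99% ± 0.054 (SD, n = 3) of the reads in MEF peaks in MEF libraries and 3.13% ± 0.10 in mESC libraries (p = 0.1 by a two-sided exact permutation test, which cannot go lower with 3 libraries in each group). Without the scaffold the shares were 2.95% ± 0.060 and 2.90% ± 0.10 (p = 0.7, exact permutation test), and the sign of the difference turned.

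The mESC peak list was used as a readout that the rule did not touch. At 50% of the width, 915 members (57.0%) overlapped an mESC peak, against 49.3% of all MEF peaks and 56.7% of peaks in chains of 7, just outside the rule. The excess was at distal sites, where 49.2% of members overlapped against 32.6% of all distal MEF peaks. At promoters the order was the reverse, 67.9% against 75.05%. By the same chaining rule the mESC list gave 380 chains, and 70 of the 154 MEF chains overlapped an mESC chain. In 8 chains every member was on the mESC list and in 4 chains none was.

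The mESC level itself decides whether a site is on the mESC list, so calls split by the list are given only beside those of all MEF peaks. Of the members on it, 435 (47.5%) were lower and 172 (18.8%) higher, beside 40.2% and 22.9% of all MEF peaks on it. Of the 689 members not on it, 619 (89.8%) were lower and 17 (2.47%) higher, beside 93.2% and 1.12%. Peak calls in the single samples, without the reproducibility filter of the lists, were compared over all members and at distal sites. An mESC sample had a called summit in 80.8% to 84.1% of members, against 65.5% to 69.4% of all MEF peaks. For distal members it was 75.2% to 79.5%, against 50.4% to 55.6%. With a -log10 p of at least 10 at the summit the shares were 68.8% to 71.7% of members and 56.6% to 59.8% of all MEF peaks. No test of these differences was made.

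Levels per kb of peak gave the same order. Distal members had a median of 21.9 CPM per kb in MEFs and 12.2 CPM per kb in mESCs, whereas other distal MEF peaks had 16.4 and 4.25 CPM per kb. Promoter members had 29.6 and 22.6 CPM per kb, below the 32.4 and 27.7 CPM per kb of other promoter peaks. Members were thus richer than other peaks in signal at distal sites only, and at promoters they were not. GC content moved the same way. Its median was 52.9% in distal members against 47.8% in other distal peaks, and 57.5% against 60.2% at promoters. The part of GC content in these levels was not tested.

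Motif content was compared within distal peaks and within promoter peaks. Within 250 bases to either side of the centre, 27.3% of distal members held an AP-1 match, against 38.9% of other distal MEF peaks. A TEAD match was found in 33.6% against 39.8%, a RUNX match in 28.8% against 37.4%, and a CTCF match in 4.20% against 7.13%. C/EBP (2.32% against 4.29%), POU (1.88% against 2.58%) and SOX matches (4.98% against 6.03%) were also fewer in distal members. KLF matches went the other way, in 8.19% against 5.26%, as did E-box matches, in 27.0% against 22.5%, and CArG boxes, in 4.09% against 3.16%. At promoters the shares of AP-1, TEAD and RUNX went the other way, as did that of the E-box (23.1% against 29.0%), with 15.03% of promoter members against 12.5% of other promoter peaks for AP-1, 24.1% against 21.95% for TEAD and 24.7% against 21.6% for RUNX. SOX also turned (4.46% against 3.55%). CTCF (1.64% against 2.47%), C/EBP (1.93% against 2.71%), KLF (6.55% against 5.72%) and CArG boxes (2.83% against 1.90%) kept their distal direction, and POU was about equal (1.64% against 1.68%). No test of these differences was made, and the part of the GC content given above in them was not tested. In the 201-base windows the shares of all distal MEF peaks and of distal members were 31.1% and 21.2% for AP-1, 25.9% and 20.8% for TEAD, and 20.8% and 14.2% for RUNX.

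The choice of sequencer moved the members little. Between the BGI and the Illumina runs of the 3 MEF libraries (edgeR quasi-likelihood test, adjusted p under 0.05), 43 members were lower on BGI and 4 higher, which is 2.68% and 0.249%, beside 3.96% and 0.107% of all MEF peaks. Since both runs read the same library, the library number pairs the samples, and with it as a block 275 members (17.1%) were lower and 115 (7.17%) higher, beside 15.3% and 13.9% of all MEF peaks. The log2 difference, BGI minus Illumina, had a median of -0.01 in members and 0.07 over all MEF peaks. It ran from -1.09 to 0.63, and 81.8% of members lay within 0.25 of 0.

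GC content went with the sign of the difference. Without the block, the members lower on BGI had a median GC content of 73.0%, and with it 64.3%, whereas those higher on BGI had 53.7% and 50.8%. The median log2 difference was 0.09 in the 119 members of at most 45% GC, 0.05 in the 703 of 45% to 55%, -0.05 in the 597 of 55% to 65% and -0.29 in the 157 above 65%. With a GC correction and the block, 175 members were lower and 89 higher. With the correction but no block none was called (at an unadjusted p under 0.05, edgeR gave 89 lower and 52 higher). The unblocked counts also changed when a library was left out, which leaves 2 runs against 2: 0 members were called by edgeR without MEF library 1 (96 lower and 10 higher at an unadjusted p under 0.05), 0 without MEF library 2 (102 and 11), and 135 lower and 5 higher without MEF library 4. With the block they were 200 lower and 52 higher without MEF library 1, 196 and 44 without MEF library 2, and 350 and 59 without MEF library 4. DESeq2 without the block called 110 lower and 14 higher.

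**Figure D5:**
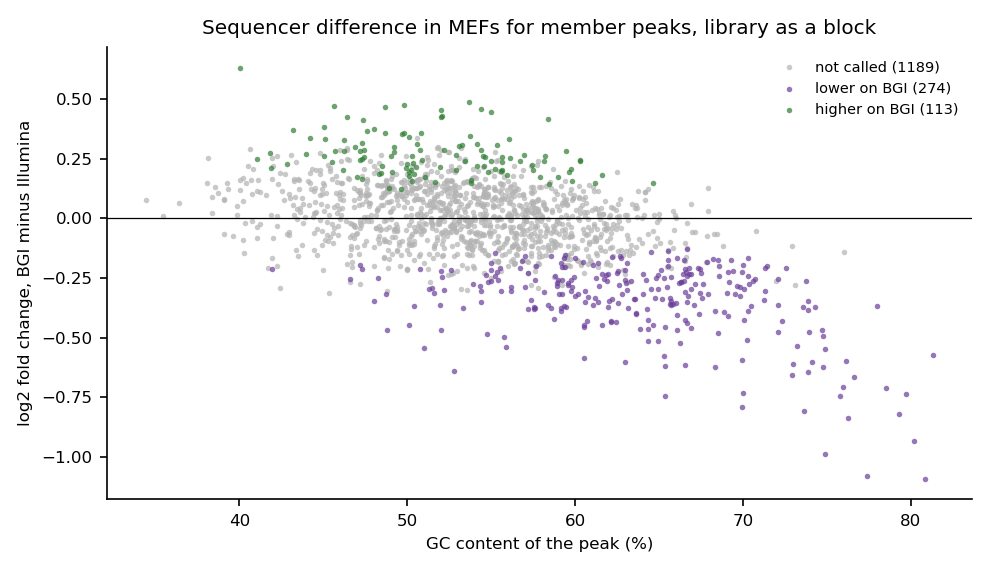
Each point is a member peak with GC content (1576 of 1604), plotted by its GC content in percent against its log2 difference, BGI minus Illumina, in the 3 MEF libraries with the library number as a block. Colours give the call at an edgeR adjusted p under 0.05. Members above 65% GC lie mostly below 0, with a median of -0.29, and those of at most 45% lie slightly above, with a median of 0.09.

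The promoter member at Wnt9a, which encodes a Wnt ligand, had the lowest p among those lower on BGI. At chr11:59306618-59307137, with a GC content of 80.2%, it stood at 15.5, 16.3 and 15.4 CPM on BGI and 28.4, 28.4 and 33.4 CPM on Illumina in MEF libraries 1, 2 and 4 (-0.93 ± 0.10, edgeR adjusted p = 0.00558, and 1.7e-17 with the block). The promoter member at Irf2bp2, a transcriptional cofactor, had -0.74 ± 0.083. With the block and the GC correction the differences shrank to -0.22 for Wnt9a and -0.19 for Irf2bp2, and both were still called.

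Of the members higher on BGI, that in an intron of Mxra7 at chr11:116816737-116817255, with a GC content of 53.8%, stood at 47.0, 45.7 and 39.7 CPM on BGI and 34.6, 35.9 and 33.7 CPM on Illumina (0.35 ± 0.080). The intergenic member near Dot1l, a histone methyltransferase, had 0.29 ± 0.062, and the promoter member at Rab3a, a GTPase of vesicle release, 0.24 ± 0.056. The Rab3a member went against the GC pattern, with a GC content of 60.3%, and had 0.31 with the block and the GC correction. Without the block, none of the members named here was called without MEF library 1 or without MEF library 2, though their differences stayed about as large (-0.73 and -0.71 for Irf2bp2, 0.29 and 0.34 for Mxra7). Summed over whole chains, the log2 ratio of BGI to Illumina, as a mean over the 3 libraries, ran from -0.30 to 0.18.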

How the data were processed

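Omni-ATAC-seq libraries of sorted MEFs and mESCs (3 each, every library run on BGI and on Illumina) were used. The authors aligned reads to GRCm38.p6 (mm10) with Bowtie2, removed duplicates with Picard, kept mapping quality of at least 10, removed mitochondrial reads, down-sampled to 60 M (MEF) or 45 M (mESC) reads and called peaks with MACS2. Versions of these tools are not given in the sources used here. Read counts for each peak of the consensus list were deposited by the authors as raw counts from Subread. The deposited summit files give, for each MACS2 summit, its -log10 p and its fold enrichment over background; only the former is quoted. The deposited peak lists give positions only.

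Counts of both runs of a library were summed for the cell type comparison. Library sizes were TMM-scaled on the joint peak set of both cell types. edgeR 4.0.16 (R 4.3.3) quasi-likelihood tests were fitted to all peaks, and to all chains, after filterByExpr, with Benjamini-Hochberg adjustment over all of them. DESeq2 1.42.0 was an alternative. Sequencers were compared over MEF runs without and with the library number as a block. Same-numbered runs deviated together (r = 0.617 to 0.837 in MEFs, -0.675 to 0.289 for different numbers), since they read the same library. On simulated data with 200 features changed by 1 on the log2 scale, the test recovered 100% of peaks between cell types (61891 peaks) with 8 false calls, 100% of chains (40718 chains) with 9, and 98.5% of peaks between sequencers (61891 peaks) with 14. The simulated counts were independent draws with the same dispersion for every feature and no variation shared by runs of a library. These rates therefore do not measure recovery in the real data. Overlap with the mESC list required 50% of the width. Motifs were searched on both strands, 250 bases to either side of each peak centre. The chain on the unplaced scaffold has no GC content or motif value here.

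Chains were named where they held a gene of a list, held most peaks, had the lowest p in a direction, or were not called and stood nearest to 0. Members and lists were chosen with earlier results of these data known. Chains without the scaffold were an alternative added after seeing the data. Columns of the MEF count table belonging to other samples numbered 0. A result on 1 member between sequencers is not reported here.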

Additional observations from a re-analysis of the deposited data

How the results depend on the processing

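With TMM factors from the MEF peaks alone, 563 members were lower in mESCs and 680 higher, with a median of 0.10, and 46 chains were lower and 85 higher, with a median of 0.23. The same scaling turned the log2 fold change of 14 named chains, to 0.076 (Pdgfra), 0.18 (Actg1), 0.20 (Ccnd2), 0.23 (Ahnak), 0.31 (Cbarp to Efna2), 0.33 (Hoxc9 and Hoxc8), 0.34 (Hic1), 0.35 (Actb), 0.36 (Cnn2), 0.37 (Lmna), 0.42 (Hoxb), 0.48 (Fosb), 0.50 (Malat1) and 0.53 (Amotl2), and that of the highest Amotl2 member to 0.43. The down-sampled depths as library sizes moved the medians to -0.57 (members) and -0.44 (chains). A minimum change of 1 on the log2 scale left 630 members lower and 63 higher, and 43 chains lower and 1 higher. Leaving out each library gave chain medians from -0.56 to -0.47. Between sequencers, DESeq2 called 110 members lower on BGI and 14 higher, a GC offset without the block 0 and 0 by edgeR (89 and 52 at an unadjusted p under 0.05), the replicate block 275 and 115, and the block with the GC offset 175 and 89. Without single libraries the unblocked counts ran from 0 to 135 lower and from 0 to 5 higher, and the blocked counts from 196 to 350 and from 44 to 59. Gaps of at most 2.5 kb gave 44 chains with 448 members, gaps of at most 10 kb 561 with 6102, at least 7 peaks 277 with 2465, and at least 10 peaks 68 with 888. Overlap with the mESC list was 63.4% at 1 bp and 50.7% at 80% of the width, and promoter members were 33.4% at 500 bp, below the 34.6% of all MEF peaks, and 53.2% at 2 kb, above 44.98%. No paired analysis was possible between cell types because MEF and mESC libraries share only the number 1. Causes were not tested. Precision of single peaks is limited by counts, which were lowest in mESC runs.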
